A study of Mus musculus with 15 samples.

Results

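Retinoid binding and metabolism was represented by 9 genes of the choroid plexus: the retinaldehyde-binding protein gene Rlbp1, the carrier and uptake genes Rbp4 and Stra6, the retinoic acid-binding protein gene Crabp2, and the enzyme genes Rdh5, Rdh10, Aldh1a1, Aldh1a2 and Lrat. They were chosen by gene symbol from 19938 named genes on the arrays, and Rlbp1 was chosen because its level stepped with Add1 genotype. Its levels are therefore described here without a test. The animals were Add1-null, heterozygous and wild-type mice of strain C57BL/6J, 5 of each genotype, all labelled male and 3 weeks old, an age before hydrocephalus develops in this model. Add1 encodes alpha-adducin, which caps actin filaments and ties them to the spectrin membrane skeleton. The labels name no treatment, and besides genotype they give a number for each animal, taken up below. The sources used here do not say which stretch of Add1 was deleted. It is unclear from the series text whether plexus of all ventricles or of the fourth ventricle was taken. Each animal gave 1 single-colour Affymetrix array, and values are log2 signals after RMA, a method that subtracts background, gives all arrays the same distribution of signal and combines the probes of each set.

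Retinoids are vitamin A and its derivatives. Retinol travels in blood bound to RBP4, enters cells through STRA6, is oxidised to retinal by retinol dehydrogenases such as RDH10 and then to retinoic acid by the ALDH1A enzymes, and is stored as esters made by LRAT. Retinoic acid binds nuclear receptors that pair with retinoid X receptors on direct repeats of a short DNA half-site. RLBP1, also called CRALBP, carries cis-retinal and cis-retinol in the retinal pigment epithelium and in Müller glia, and RDH5 oxidises cis-retinol in the same visual cycle. The choroid plexus and the meninges are known sources of retinoic acid for the developing brain.

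Promoter windows are shown for the genes on which the results below turn, Rlbp1 for its genotype step and Rbp4 and Aldh1a2 for their variation with stromal markers. Each runs from 250 bases before the RefSeq transcript start to 50 after it (RefSeq, GRCm38.p6), in the direction of the gene, and capitals mark a retinoid receptor half-site, read as AGGTCA, the variant AGTTCA, the variant GGGTCA or the variant GGTTCA on either strand.
Rlbp1 (chr7:79386978-79387277, minus strand): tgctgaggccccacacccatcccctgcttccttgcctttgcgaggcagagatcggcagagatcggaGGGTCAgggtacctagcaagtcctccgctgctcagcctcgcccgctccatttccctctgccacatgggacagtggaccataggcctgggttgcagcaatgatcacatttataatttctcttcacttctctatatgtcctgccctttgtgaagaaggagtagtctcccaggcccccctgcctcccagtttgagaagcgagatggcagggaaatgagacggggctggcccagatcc
Rbp4 (chr19:38125272-38125571, minus strand): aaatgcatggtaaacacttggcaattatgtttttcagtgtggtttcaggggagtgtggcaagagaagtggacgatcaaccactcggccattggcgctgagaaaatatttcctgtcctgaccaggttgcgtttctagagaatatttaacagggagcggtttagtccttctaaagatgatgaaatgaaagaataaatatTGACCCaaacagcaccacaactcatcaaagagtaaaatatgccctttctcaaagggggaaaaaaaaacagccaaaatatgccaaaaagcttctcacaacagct
Aldh1a2 (chr9:71215539-71215838, plus strand): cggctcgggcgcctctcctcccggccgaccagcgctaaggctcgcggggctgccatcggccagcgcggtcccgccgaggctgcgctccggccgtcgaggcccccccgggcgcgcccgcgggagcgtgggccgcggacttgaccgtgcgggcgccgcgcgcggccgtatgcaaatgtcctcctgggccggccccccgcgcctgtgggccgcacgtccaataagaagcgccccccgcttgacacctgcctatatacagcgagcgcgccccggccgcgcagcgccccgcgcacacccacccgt
The Rlbp1 window held 1 half-site, whose first base lies at -184 from the transcript start, and the Rbp4 window shown held 1 at -53 on the opposite strand. Another Rbp4 window (chr19:38124762-38125061), not shown, held none. Windows were found for 7 of the 9 genes, 12 in all, and a half-site was present in 4 of the 12, against 43.7% of the 32851 windows in the RefSeq table. No window of these genes held 2 half-sites as a direct repeat with 5 bases between them (0.0974% of all windows) or the core TAATCC bound by OTX and CRX factors on either strand (7.06% of all windows), where a direct repeat is made of half-sites that also count singly. Rdh10 and Crabp2 are named only.

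Rlbp1 was highest in null plexus, low in heterozygous plexus and lowest in wild-type plexus. The 5 null arrays read 6.67, 6.55, 6.39, 6.52 and 6.36, the 5 heterozygous arrays 5.49, 5.16, 5.33, 5.49 and 5.49, and the 5 wild-type arrays 5.05, 5.08, 4.99, 5.31 and 4.8. Every null array lay above every array of the other genotypes, with a gap of 0.87 between the lowest null and the highest heterozygous array. Among heterozygous arrays 4 of 5 lay above all wild-type arrays, and heterozygous array 2 lay within the wild-type range. The means were 6.50 ± 0.126 in null, 5.39 ± 0.147 in heterozygous and 5.05 ± 0.183 in wild-type plexus (SD, n = 5 each).

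On the log2 scale the Rlbp1 difference was 1.45 for null against wild type (2.74-fold), 1.11 for null against heterozygous (2.15-fold) and 0.35 for heterozygous against wild type (1.27-fold). The heterozygous rise was 23.8% of the null rise. The null arrays enter both of the larger differences, so these are not independent of each other. All 5 wild-type values were at or below 5.31, the value used as the filter on low signals (the median of all gene values), while 4 heterozygous and 5 null arrays exceeded it. Rlbp1 entered the tested set only through the genotypes in which it was higher, and a fold that starts from so low a signal is compressed on arrays. In bulk tissue a change in the number of cells that hold a transcript and a change in RNA per cell cannot be told apart, here and for every gene below.

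**Figure D1:**
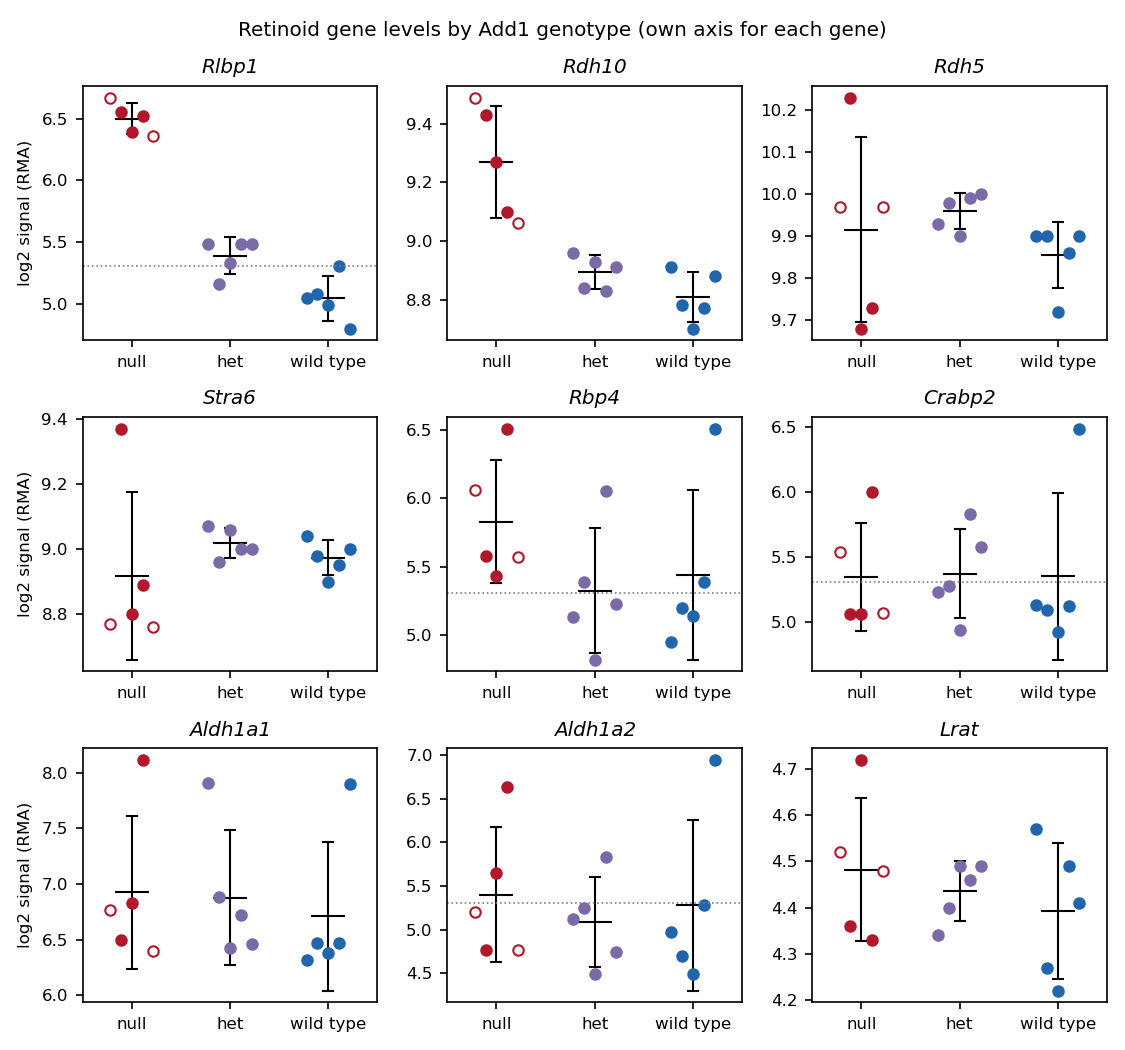
Log2 signal (y axis, RMA, a separate axis for each gene) of the 9 retinoid genes in null, heterozygous (het) and wild-type plexus (x axis). Points are arrays, horizontal bars with whiskers are mean and SD (n = 5), open points are null arrays 1 and 5, which carry Xist signal, and the dotted line is the filter value of 5.31. Rlbp1 and Rdh10 are the panels in which all null points lie above all others.

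A pair of null arrays, 1 and 5, did not match their male label. Xist, the RNA of the inactive X chromosome, read 9.09 and 9.69 in them and 3.11 to 3.88 in the other 13 arrays, and the Y-linked genes Uty, Kdm5d and Eif2s3y read 3.19 to 4.27 against 6.92 to 7.95. These are the null arrays with the highest and lowest Rlbp1 value, and without them the Rlbp1 difference was 1.44 against wild type and 1.09 against heterozygous. The targeted gene Add1 read 7.66, 7.74, 7.76, 7.46 and 7.41 in null arrays, 7.68, 7.68, 7.74, 7.92 and 7.79 in heterozygous arrays, and 7.96, 8.04, 7.78, 7.81 and 8.0 in wild-type arrays. The null arrays lay below all wild-type arrays by a small margin (log2 difference -0.31, SE 0.0791, limma adjusted p = 0.0241). Null and heterozygous arrays overlapped, and their difference did not pass (-0.16, limma adjusted p = 0.224). A probe set that spans the transcript can keep signal from outside a deletion, which was not tested here.

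The labels also give each animal a number whose meaning is not stated and which was partly aligned with genotype. Number 460 held null array 2 and heterozygous array 5, and Rlbp1 was 1.06 higher in the null array. Within number 432 the heterozygous arrays were 0.26 above the wild-type arrays in Rlbp1, and within number 429 the difference was 0.10. No number held null and wild-type arrays, so within-number values for that comparison were not available. With the number as a linear covariate the Rlbp1 difference of null against wild type was 1.59.

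Markers of the tissue and of neighbouring cells were read beside Rlbp1. All 13 measured markers of choroid epithelium passed the filter, and their mean ran from 10.79 to 10.84 in null, 10.76 to 10.86 in heterozygous and 10.76 to 10.87 in wild-type arrays. Of the 13, the water channel gene Aqp1 rose in null against wild type (0.34, limma adjusted p = 0.00256), and the potassium channel genes Kcnj13 (-0.23, adjusted p = 0.027) and Kcne2 (-0.24, adjusted p = 0.0257) fell, where 4.17% of all genes were higher and 3.54% lower. The same 3 were called in the same directions against heterozygous. RLBP1 is best known from the retina, and of 12 retinal and pigment epithelial markers 1 passed the filter, the melanin enzyme Dct. The visual cycle isomerase Rpe65 (2.70 to 3.18), the opsin Rgr (3.05 to 3.54) and the photoreceptor factor Crx (3.02 to 3.31) were far below it in every array. Other markers of the list, Rrh (4.70 to 5.34), Pmel (4.69 to 5.22) and Sag (4.20 to 4.90), lay closer to it, and the highest Rrh array exceeded it.

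Some astrocyte and radial glia markers were higher in null plexus. Of 13 measured, 10 passed the filter, and their mean ran from 7.85 to 8.44 in null arrays, 7.68 to 8.34 in heterozygous arrays and 7.67 to 7.85 in wild-type arrays. Sox2 (0.35, adjusted p = 0.0103), Vim (0.72, adjusted p = 0.0128) and Fgfr3 (0.37, adjusted p = 0.0486) rose in null against wild type in limma's test, 3 of 10, where 4.17% of all genes were higher. The others, among them Gfap (0.48, adjusted p = 0.382), did not pass. Heterozygous array 1 had a glial mean of 8.34, above 4 of the 5 null arrays, against 7.68 to 7.80 in the other heterozygous arrays. That array also stood apart in neuron markers, with a mean of 7.79 against 5.76 to 6.04 in the other heterozygous arrays. In oligodendrocyte markers its mean was 7.35 against 6.11 to 6.15. Of 8 endothelial markers 5 passed the filter, and their mean ran from 6.21 to 6.79 in null, 5.93 to 6.21 in heterozygous and 6.0 to 6.58 in wild-type arrays. Of the 5, the VEGF receptor gene Kdr (0.49, adjusted p = 0.00395) and the junction gene Cdh5 (0.55, adjusted p = 0.0275) rose against wild type in limma's test, where 4.17% of all genes were higher. Flt1 (0.25, adjusted p = 0.329), Plvap (0.18, adjusted p = 0.500) and Emcn (-0.03, adjusted p = 0.929) did not pass. Kdr and Cdh5 were also called higher against heterozygous, where 4.28% of all genes were. The part of glial and endothelial cells in the Rlbp1 difference was not tested.

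The genes whose arrays followed Rlbp1 most closely were ranked by Pearson r over the 15 arrays, as a description, since a gene that differs between genotypes scores high. The highest were Rimklb (0.94), which joins glutamate to N-acetylaspartate, the BMP regulator Bmper (0.93), the cold-inducible RNA-binding protein gene Cirbp (0.93), the chemokine receptor Cxcr4 (0.92) and the zinc finger factor Zic4 (0.91). The lowest were the heat shock protein Hsph1 (-0.96), the endoplasmic reticulum chaperone Hspa5 (-0.93) and cytochrome c, Cycs (-0.91). Rimklb averaged 6.43 ± 0.241 in null, 5.36 ± 0.193 in heterozygous and 5.21 ± 0.140 in wild-type plexus (SD, n = 5 each), and Hsph1 averaged 8.55 ± 0.174 in null, 9.18 ± 0.119 in heterozygous and 9.34 ± 0.138 in wild-type plexus. Both have heterozygous means between the other genotypes and nearer to wild type, the order seen in Rlbp1. Rdh10 had an r of 0.88 and ranked 21 of 9835 genes with an approved name.

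Once genotype means were taken out, other genes led. The highest were Ier3 (0.78), Adamtsl5 (0.76), Jdp2, Psmd9 and Rexo1 (0.75 to 0.76), the lowest were Nipa2 (-0.91), Dpy19l4 (-0.84) and Timm21 (-0.76), and Rdh10 stood at 0.26, rank 1593.

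Rdh10, the dehydrogenase that makes retinal from all-trans-retinol, was the gene of this group, apart from Rlbp1, that rose in null plexus. It read 9.49, 9.43, 9.27, 9.10 and 9.06 in null arrays, 8.96, 8.84, 8.93, 8.83 and 8.91 in heterozygous arrays and 8.91, 8.78, 8.70, 8.77 and 8.88 in wild-type arrays. All null arrays lay above all others, the lowest by 0.10, and heterozygous and wild-type arrays overlapped. The null mean of 9.27 ± 0.192 stood against 8.89 ± 0.0568 in heterozygous and 8.81 ± 0.0858 in wild-type plexus (SD, n = 5 each).

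The Rdh10 difference was 0.46 on the log2 scale for null against wild type (SE 0.0778, 95% interval 0.30 to 0.63, 1.38-fold, limma adjusted p = 0.00251 over 10109 genes) and 0.38 for null against heterozygous (1.30-fold, adjusted p = 0.00983). Heterozygous against wild type was 0.09 (95% interval -0.08 to 0.25, adjusted p = 0.994), or 18.6% of the null rise. Both calls held without null arrays 1 and 5 (0.46, adjusted p = 0.00424, and 0.37, adjusted p = 0.0157). In number 460 the null array was 0.52 above the heterozygous one.

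Of the 6 genes of the group that could be tested apart from Rlbp1, 1 was called between null and wild type, where 7.72% of all genes were called (4.17% higher in null). The count was again 1 between null and heterozygous, where 7.82% of all genes were called (4.28% higher in null), and both comparisons share the null arrays. Between heterozygous and wild type it was 0, where limma called 0% of 10109 genes and 381 had an unadjusted p under 0.05. Apart from Rlbp1, whose separation follows from how it was chosen, arrays of null and wild type did not overlap for 1 of the 6 genes, Rdh10, where 5.95% of all genes tested did not overlap. Between null and heterozygous it was again Rdh10, where the share over all genes was 5.76%. No gene of the group separated heterozygous from wild-type arrays, where 0.801% of all genes did. The median difference of the 6 genes was 0.14 for null against wild type, beside 0.01 for all genes. For null against heterozygous it was 0.01, beside 0.008 for all genes. For heterozygous against wild type it was 0.065, beside 0.002 for all genes.

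**Figure D2:**
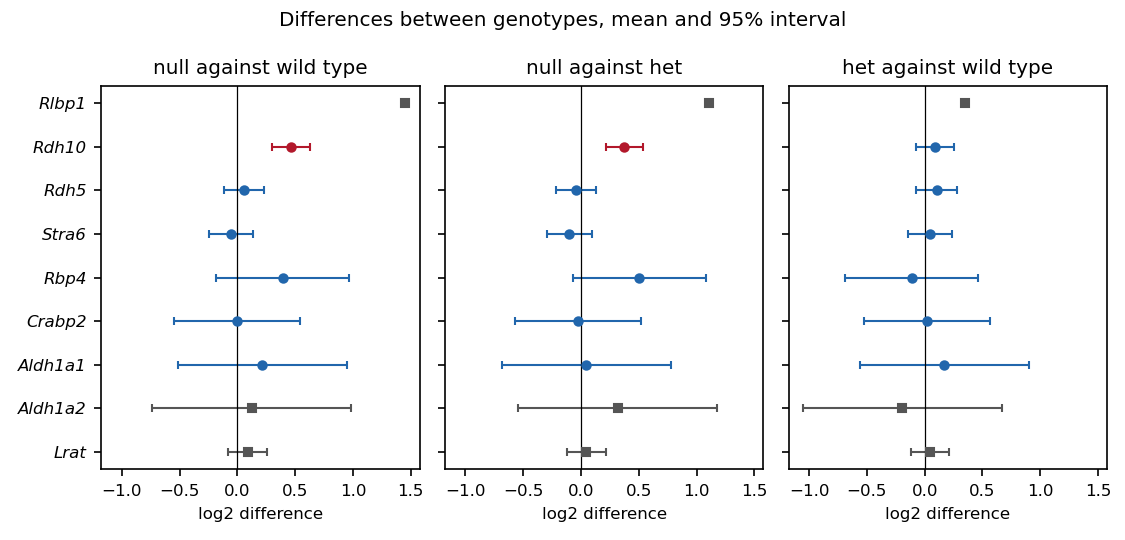
Log2 difference (x axis) of each retinoid gene (y axis) for null against wild type, null against heterozygous (het) and heterozygous against wild type, with 95% intervals from limma except for Rlbp1. Red circles passed the adjusted p threshold of 0.05, blue circles did not, and grey squares carry no limma p: Rlbp1, chosen for its pattern and shown as its mean difference alone, and Aldh1a2 and Lrat, below the filter. Rdh10 is the red circle in both null panels, and the intervals of Rbp4, Crabp2, Aldh1a1 and Aldh1a2 are wide and cross 0.

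Rdh5, the cis-retinol dehydrogenase, had a high and even signal. It read 9.97, 10.23, 9.68, 9.73 and 9.97 in null arrays, 9.93, 9.98, 9.90, 9.99 and 10 in heterozygous arrays and 9.90, 9.90, 9.72, 9.86 and 9.90 in wild-type arrays. Null arrays lay on both sides of the other genotypes, with null array 2 highest and null array 3 lowest. No Rdh5 difference passed the test, with 0.06 for null against wild type (95% interval -0.11 to 0.23), -0.04 for null against heterozygous and 0.10 for heterozygous against wild type.

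Stra6, the membrane receptor that takes retinol from RBP4, read 8.77, 9.37, 8.80, 8.89 and 8.76 in null arrays, 9.07, 8.96, 9.06, 9.0 and 9.0 in heterozygous arrays and 9.04, 8.98, 8.90, 8.95 and 9.0 in wild-type arrays. Null array 2 was the highest of all 15. The other null arrays all lay below the lowest wild-type array. Over all arrays Stra6 was -0.06 from wild type (95% interval -0.25 to 0.14, adjusted p = 0.755) and -0.10 from heterozygous (adjusted p = 0.517). Without null array 2 it fell by 0.17 against wild type (adjusted p = 0.0358) and by 0.21 against heterozygous (adjusted p = 0.0107), so a single array decided this value; over all alternatives the adjusted p lay between 0.0358 and 0.977 and between 0.0107 and 0.996. Without null arrays 1 and 5 the difference from wild type was 0.05.

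Rbp4, which encodes the retinol carrier of plasma, read 6.06, 5.58, 5.43, 6.51 and 5.57 in null arrays, 5.13, 5.39, 4.82, 6.05 and 5.23 in heterozygous arrays and 4.95, 5.20, 5.14, 5.39 and 6.51 in wild-type arrays. All null arrays exceeded 4 of the 5 wild-type arrays, while wild-type array 5 equalled the highest null array. The differences of 0.39 for null against wild type (SE 0.273, adjusted p = 0.406) and 0.51 for null against heterozygous (adjusted p = 0.254) did not pass. Heterozygous against wild type was -0.11.

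Crabp2 delivers retinoic acid to its nuclear receptors. Its values were 5.54, 5.06, 5.06, 6.00 and 5.07 in null arrays, 5.23, 5.28, 4.94, 5.83 and 5.58 in heterozygous arrays and 5.13, 5.09, 4.92, 5.12 and 6.49 in wild-type arrays. It passed the filter in just 5 arrays, 2 null, 2 heterozygous and 1 wild-type, and its means of 5.35 in null, 5.37 in heterozygous and 5.35 in wild-type plexus were nearly the same. The 95% interval for null against wild type, -0.55 to 0.54, was wide.

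Aldh1a1, a retinal dehydrogenase, read 6.77, 6.50, 6.83, 8.12 and 6.40 in null arrays, 7.91, 6.88, 6.42, 6.72 and 6.46 in heterozygous arrays and 6.32, 6.47, 6.38, 6.47 and 7.90 in wild-type arrays. In each genotype 1 array stood more than 1 unit above the others: null array 4, heterozygous array 1 and wild-type array 5. The differences were 0.22 for null against wild type (95% interval -0.52 to 0.95, adjusted p = 0.753), 0.05 for null against heterozygous and 0.17 for heterozygous against wild type, none past the test.

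Aldh1a2, the retinal dehydrogenase of the meninges, exceeded the filter value in 4 arrays and was not in the limma test. It read 5.20, 4.77, 5.65, 6.63 and 4.77 in null arrays, 5.12, 5.25, 4.49, 5.83 and 4.75 in heterozygous arrays and 4.98, 4.70, 4.49, 5.28 and 6.95 in wild-type arrays. The spread within a genotype reached 2.46, between the highest and lowest wild-type arrays, and covered the differences between genotype means. Lrat, the enzyme that esterifies retinol, never exceeded the filter value: it read 4.33 to 4.72 in null, 4.34 to 4.49 in heterozygous and 4.22 to 4.57 in wild-type arrays. Over the 6 comparisons of these 2 genes the two-sided exact permutation p lay between 0.389 and 0.810, and all adjusted values were 0.810.

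Rbp4, Crabp2, Aldh1a1 and Aldh1a2 shared their high arrays. Wild-type array 5 was the highest wild-type array and null array 4 the highest null array for each of them, and heterozygous array 4 was the highest heterozygous array for all but Aldh1a1. Those arrays were also the highest of their genotype in the mean of 12 markers of stroma and meninges, with 8.26 in null array 4, 7.92 in heterozygous array 4 and 8.03 in wild-type array 5.

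The relation of the genes to that marker mean was measured over 15 arrays in 8 genes, by Pearson r and Spearman rho with 100000 permutations and Benjamini-Hochberg adjustment over the 8. Rbp4 followed it most closely (r = 0.91, permutation p = 1e-05, the smallest that can be given, adjusted 8e-05; rho = 0.94, p = 1e-05). Without null array 4 and wild-type array 5, the arrays farthest from the median of the markers, r was 0.82, and with genotype means taken out it was 0.89. Aldh1a2 also followed it (r = 0.84, permutation p = 0.00019, adjusted 0.00076; rho = 0.76, p = 0.0015, adjusted 0.006), with r = 0.67 without those arrays and 0.89 with genotype means taken out.

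For Crabp2 the linear relation passed (r = 0.71, permutation p = 0.00409, adjusted 0.0109) and the rank relation did not (rho = 0.47, p = 0.0759, adjusted 0.152), and r was 0.41 without those arrays. Aldh1a1 had an r of 0.57 (permutation p = 0.025, adjusted 0.0499; rho = 0.54, p = 0.0379, adjusted 0.101), and this rested on the same arrays, since r was -0.07 without them. Heterozygous array 1 combined a high Aldh1a1 value with a low stromal mean of 7.49 and high neuron, oligodendrocyte and glial markers. Stra6 (r = -0.13), Rdh5 (-0.17), Rdh10 (0.29) and Lrat (-0.01) showed no relation that passed (adjusted permutation p of 0.464 or more for r and of 0.287 or more for rho, which ran from -0.37 to 0.24).

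**Figure D3:**
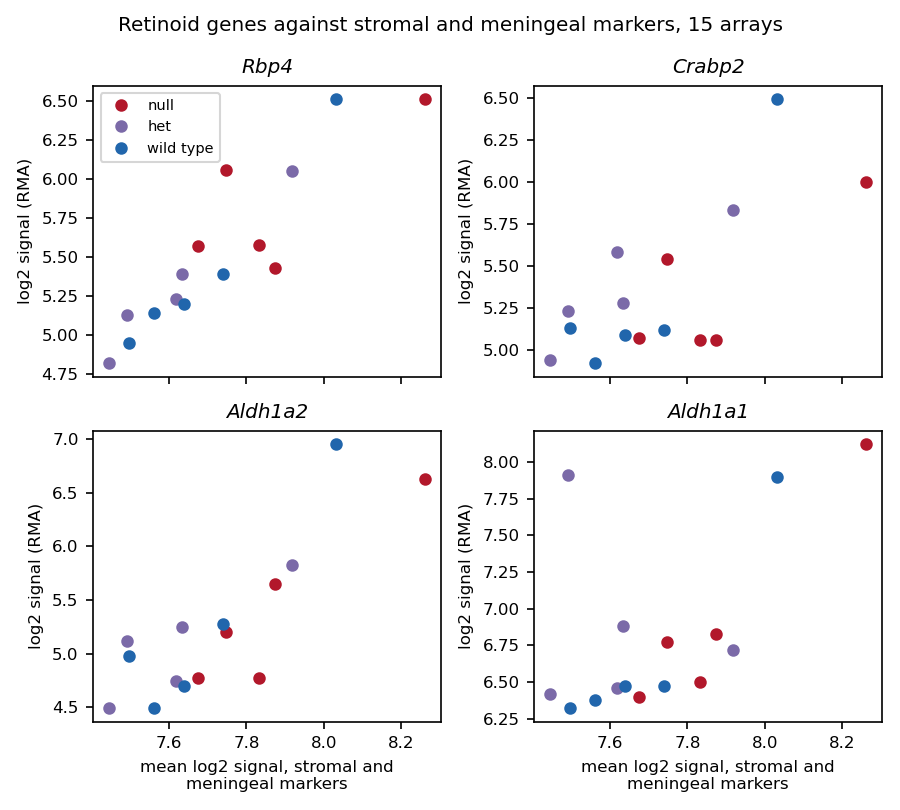
Log2 signal of Rbp4, Crabp2, Aldh1a2 and Aldh1a1 (y axes) against the mean log2 signal of 12 stromal and meningeal markers (x axis), 1 point per array, coloured by genotype (null, het, wild type). Rbp4 rises with the markers across the whole range (r = 0.91), whereas Aldh1a1 is high in 3 arrays, 1 of each genotype, and lies between 6.32 and 6.88 in the others.

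Some stromal markers themselves differed between null and wild type. All 12 passed the filter, and their mean ran from 7.68 to 8.26 in null, 7.45 to 7.92 in heterozygous and 7.5 to 8.03 in wild-type arrays. In null against wild type 3 rose, the proteoglycan Dcn (0.68), the receptor Pdgfra (0.79) and the matrix protein Fbln1 (0.64), and Ogn, another proteoglycan, fell (-0.59), by limma's adjusted p, where 4.17% of all genes were higher and 3.54% lower. The part of stromal content in the Rbp4 values of null arrays was not tested.

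Beyond these genes, 68 others of retinoid transport, metabolism and response were listed, 64 were on the arrays and 27 passed the filter. Between null and wild type 5 rose and 1 fell, where 4.17% of all genes were higher and 3.54% lower, and the median difference was 0.03, beside 0.01 for all genes. Between null and heterozygous 4 rose and 1 fell, where 4.28% of all genes were higher and 3.54% lower, and between heterozygous and wild type 0 were called. Of the genes that rose against wild type, 4 are listed as targets of retinoic acid. The list of targets had 11 tested genes, a count that includes Stra6 and Crabp2 of the group described above. None of the 8 tested nuclear receptor and cofactor genes was called in any comparison. Of all genes, 7.72% were called for null against wild type and 7.82% for null against heterozygous. For heterozygous against wild type 0% were called.

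Dhrs3, which reduces retinal back to retinol and is itself induced by retinoic acid, read 9.53, 9.28, 9.42, 9.26 and 9.41 in null arrays, 8.96, 9.13, 9.09, 9.19 and 9.13 in heterozygous arrays and 8.97, 8.95, 9.15, 9.06 and 9.08 in wild-type arrays. The null arrays lay above all others. The difference was 0.34 from wild type (SE 0.0644, limma adjusted p = 0.00474) and 0.28 from heterozygous (adjusted p = 0.0154). RDH10 and DHRS3 catalyse opposite directions of the retinol and retinal exchange. Their genes were the 2 called higher among 9 tested for that step, against wild type and against heterozygous. Over all genes 4.17% were higher against wild type and 4.28% against heterozygous. The median difference of the 9 from wild type was 0.03.

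Retsat, which saturates retinol, fell in null plexus. Its values were 6.90, 7.36, 7.04, 7.17 and 7.23 in null arrays, 7.48, 7.5, 7.38, 7.69 and 7.42 in heterozygous arrays and 7.68, 7.70, 7.61, 7.53 and 7.37 in wild-type arrays. The highest null array, 7.36, lay just below the lowest wild-type array, 7.37. The difference was -0.44 from wild type (SE 0.0868, adjusted p = 0.00648, limma) and -0.35 from heterozygous (adjusted p = 0.0211).

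Cyp1b1, a cytochrome P450 that can oxidise retinol and retinal, read 6.97, 6.52, 6.91, 6.99 and 6.78 in null arrays, 6.11, 6.60, 5.90, 6.49 and 6.06 in heterozygous arrays and 6.19, 6.14, 6.14, 6.43 and 6.50 in wild-type arrays. Null arrays lay above all wild-type arrays, the lowest by 0.02 on these values, and null array 2 lay below heterozygous array 2. The difference was 0.55 from wild type (SE 0.127, adjusted p = 0.0138) and 0.60 from heterozygous (adjusted p = 0.0103), in limma's test. Without null arrays 1 and 5 the differences were nearly as large, 0.53 from wild type and 0.57 from heterozygous, but did not pass (adjusted p = 0.0663 and 0.0523, within ranges of 0.00431 to 0.118 and 0.00247 to 0.0903 over all alternatives). The Cyp26 enzymes, which clear retinoic acid, did not pass the filter.

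The homeobox gene Meis1 read 7.03, 6.78, 7.18, 7.03 and 6.96 in null arrays, 6.72, 6.67, 6.62, 6.75 and 6.75 in heterozygous arrays and 6.64, 6.74, 6.70, 6.68 and 6.68 in wild-type arrays. All null arrays lay above all others, by 0.31 on average against wild type (SE 0.0636, limma adjusted p = 0.00794) and 0.29 against heterozygous (adjusted p = 0.0113). Its relative Meis2 was 0.38 above wild type (adjusted p = 0.0283) and 0.42 above heterozygous (adjusted p = 0.0174), with null array 5, at 5.95, inside the wild-type range of 5.65 to 6.04. Nr2f1, an orphan nuclear receptor induced by retinoic acid, was 0.27 above wild type (adjusted p = 0.024) and did not pass against heterozygous (0.18, adjusted p = 0.118).

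Other listed targets did not pass: Rarb, the receptor that retinoic acid induces, was 0.03 from wild type (adjusted p = 0.911) and Nr2f2 0.22 (adjusted p = 0.125). With the label number as a covariate the calls against wild type of Dhrs3 (0.34, adjusted p = 0.0801), Retsat (-0.42, adjusted p = 0.106), Meis1 (0.28, adjusted p = 0.133), Cyp1b1 (0.59, adjusted p = 0.118) and Nr2f1 (0.22, adjusted p = 0.272) were lost. Those of Rdh10 (0.59, limma adjusted p = 0.0116) and Meis2 (0.58, limma adjusted p = 0.0386) were kept. The differences themselves stayed close to those without the covariate, except that Rdh10 and Meis2 were larger and Nr2f1 smaller. The standard errors grew (Dhrs3 0.0982, against 0.0644 without it). Each of the adjusted p-values that ended a call was the highest of any alternative for its gene, and the lowest lay between 0.000672 for Meis1 and 0.0157 for Nr2f1. Against heterozygous the same covariate ended the calls of Dhrs3 (0.28), Retsat (-0.33), Meis1 (0.27) and Cyp1b1 (0.63), at adjusted p of 0.0903 to 0.189 and with differences close to those without it. Rdh10 (0.50, limma adjusted p = 0.0291) and Meis2 (0.61, limma adjusted p = 0.0296) kept theirs, with larger differences. Leaving out null arrays 1 and 5 ended those of Dhrs3 (0.22, adjusted p = 0.0919) and Retsat (-0.30, adjusted p = 0.0831). The number is partly aligned with genotype. Retsat lost its call against heterozygous without null array 1 or 3 or heterozygous array 4 (-0.29 to -0.33), and Meis2 without null array 1 (0.39). Meis2 lost its call against wild type without null array 1 or 3 or wild-type array 1 or 5 (0.31 to 0.36), and also with no filter (0.38, adjusted p = 0.0504) and with only the 2 genotypes fitted (0.38, adjusted p = 0.0631), and so kept it in 20 of 26 alternatives. Nr2f1 lost it without null array 3 or wild-type array 1, 2 or 3 (0.24 to 0.26) and after median centring of the arrays (0.24, adjusted p = 0.0571), which with the covariate leaves 20 of 26 alternatives in which it was kept.

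In heterozygous plexus the smallest p-values of the other retinoid genes belonged to the retinoic acid receptor Rara (-0.18 from wild type), the coactivator Ncoa1 (-0.18) and the receptor Rxrb (0.14), each with a limma adjusted p of 0.994. Rara read 5.37, 5.30, 5.35, 5.56 and 5.51 in heterozygous arrays and 5.57, 5.60, 5.58, 5.63 and 5.62 in wild-type arrays, which do not overlap. Null arrays, at 5.45 to 5.68, reached into both ranges.

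**Figure D4:**
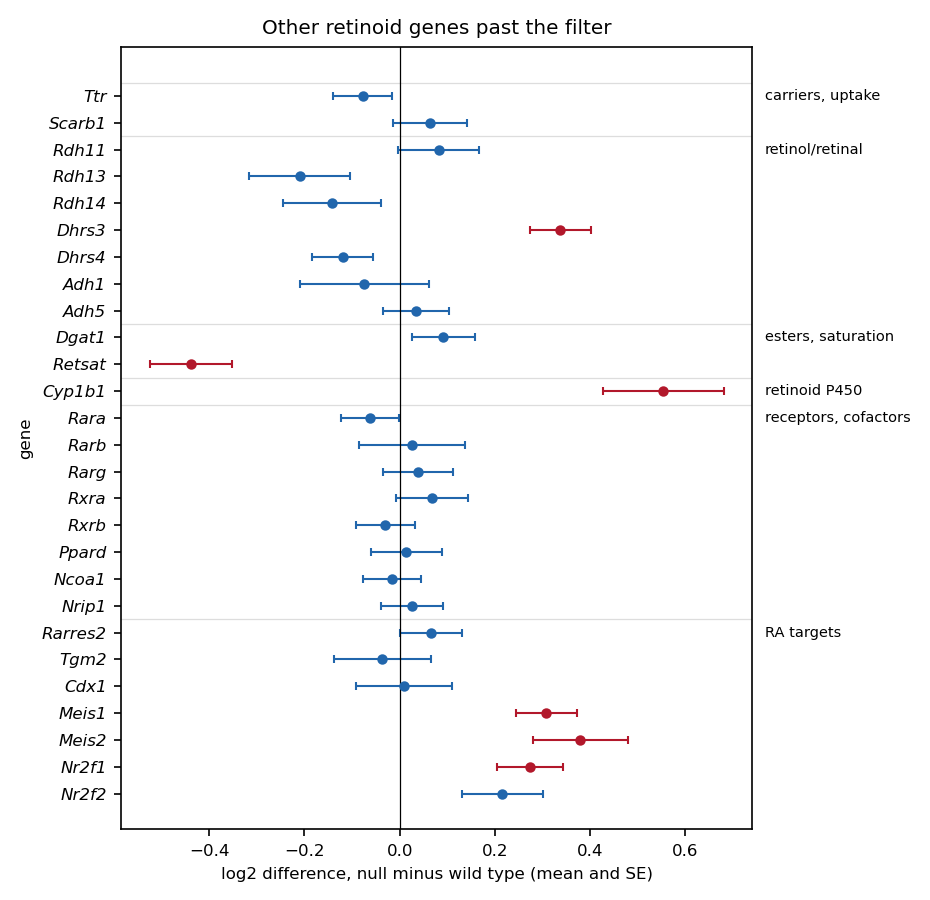
Log2 difference of null minus wild type (x axis, mean and SE from limma) for the 27 other retinoid genes past the filter (y axis), grouped by role as named on the right. Red points passed the adjusted p threshold of 0.05: Dhrs3, Cyp1b1, Meis1, Meis2 and Nr2f1 lie above 0 and Retsat below it.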

How the data were processed

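RNA of the choroid plexus of 15 animals was measured on 1 Affymetrix array each, from 250 ng of total RNA per the labels' protocols. The authors deposited 1 log2 value per probe set, made with Affymetrix Expression Console 1.1 and RMA per the submitters' processing notes. No source used here states the log base, which was inferred from values of 1.57 to 13.89 and array medians of 4.78 to 4.88. The number of arrays limits the precision, and no label says that the animals came from separate litters. The p-values set differences between genotypes against the spread between these animals within genotypes. The main fit treated the animals as independent, also those that share a label number. No value column lay outside the labelled samples, no array was a copy of another, and differences between 2 arrays had an SD of at least 0.232.

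Of 35556 probe sets the platform annotation, which can be old, gave 1 gene symbol to 21789, several to 1621 and none to 12146, and 21698 of the first matched the RefSeq table of GRCm38.p6. The probe set with the highest mean was kept for each of 19938 genes, 999 of which had more than 1; each of the 9 retinoid genes had 1. Genes above 5.31, the median of all values of the kept probe sets, in at least 5 arrays were tested (10109 genes, 7 of the 9). limma 3.58.1 (lmFit and eBayes, R 4.3.3) was fitted to all 15 arrays with genotype as the only factor, giving 12 residual degrees of freedom, and genes with a Benjamini-Hochberg adjusted p under 0.05 were called. Genes below the filter were compared by exact permutation over 252 regroupings of 5 against 5 arrays, whose smallest p is 0.00794. The procedure was tested on simulated data.

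The retinoid genes, the gene lists and the markers were chosen with earlier results of these data known. Genes named are the 9 retinoid genes, Add1, sex-linked genes and up to 3 markers of a list. Also named are called genes of the other retinoid lists (6 at most per comparison, or the 3 smallest p-values where none was called). The genes most and least like Rlbp1 among those with an approved name are named too. Rarb, Nr2f2 and the markers Ogn, Gfap, Rrh, Pmel, Sag, Flt1, Plvap and Emcn were named after their values were seen. Alternatives were other filters, all probe sets, other array scaling, an intensity trend, fits to 2 genotypes, the replicate number as a block, the label number as a covariate or block, and leaving out arrays.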

Additional observations from a re-analysis of the deposited data

Results flagged for a closer look

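Within each genotype the highest and lowest array of every retinoid gene were compared with their nearest neighbour. Of 27 groups of 5 arrays, 6 held an array whose distance from the next, as a share of the group's range, exceeded Dixon's 95% critical value; chance gives about 1 in 20 groups.

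Wild-type array 5 stood above the other wild-type arrays for Rbp4 (6.51, the next 5.39), Crabp2 (6.49, the next 5.13) and Aldh1a1 (7.90, the next 6.47). Null array 4 stood above the other null arrays for Aldh1a1 (8.12, the next 6.83). Null array 2 was far above the other null arrays for Stra6 (9.37, the next 8.89). Wild-type array 3 was the lowest wild-type array for Rdh5 (9.72, the next 9.86). Wild-type array 5 and null array 4 had the highest stromal and meningeal marker means of their genotypes, 8.03 and 8.26, and the part of stromal content in these values was not tested.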

How the results depend on the processing

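The Rdh10 calls in both null comparisons held under all 26 alternatives each. Against wild type the difference was 0.41 to 0.59 (limma adjusted p 0.00116 to 0.0148). Against heterozygous it was 0.32 to 0.50 (limma adjusted p 0.00435 to 0.0358). With 1 array left out the Rlbp1 difference of null from wild type ran from 1.39 to 1.52. That range is description only, since Rlbp1 was chosen for its genotype step. Replicate numbers were not used to pair the animals in the main fit. Deviations from the genotype mean correlated between -0.254 and 0.238 in same-numbered pairs, over 0.1 in 4 of 15. Pairs with different numbers were not measured, so these values cannot show whether the numbers pair animals. With the replicate number as a block, limma called 520 genes for null against wild type, 0 for heterozygous against wild type and 546 for null against heterozygous, and Rdh10 stayed called. Over all genes, the 780 calls of null against wild type became 458 with only those genotypes fitted, 259 with the label number as a covariate, 401 without null arrays 1 and 5, and 392 to 1420 with 1 array left out. The 791 calls of null against heterozygous became 500 with no filter, 342 with only those genotypes, 199 with the label number, 332 without null arrays 1 and 5, and 356 to 1812 with 1 array left out. The 0 calls of heterozygous against wild type became 1 without null arrays 1 and 5 and 0 to 1 with 1 array left out. The called retinoid genes numbered 1 to 2 in both null comparisons with 1 array left out, Stra6 being added without null array 2. The cause of these changes was not tested, beyond the fewer arrays or genes in a fit.

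Small differences, none past the test, changed sign. Without null arrays 1 and 5, Stra6 was 0.046 from wild type and 0.002 from heterozygous, and Crabp2 0.0233 and 0.00133. Crabp2 was 0.0168 from wild type after quantile normalization and, for heterozygous against wild type, -0.018 after median centring. Aldh1a1 was -0.074 for null against heterozygous with the label number. With 1 array left out, the ranges for null minus wild type were -0.1675 to 0.281 in Crabp2, -0.083 to 0.514 in Aldh1a1 and -0.0185 to 0.119 in Rdh5. For null minus heterozygous they were -0.1895 to 0.0885 in Crabp2, -0.253 to 0.304 in Aldh1a1 and -0.1225 to 0.015 in Rdh5. For heterozygous minus wild type they were -0.0925 to 0.307 in Crabp2, -0.088 to 0.468 in Aldh1a1 and -0.2955 to 0.154 in Rbp4. Of all single-gene alternatives, 845 were counted as unchanged, 28 lost the call, 2 gained it and 32 changed sign. For tested genes unchanged means the same direction and call. For Rlbp1, Aldh1a2 and Lrat, which carry no test, it means a shift smaller than the SD within genotypes. Rlbp1, Crabp2, Aldh1a2 and Lrat lie near the filter value, where array folds are compressed.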
